A study of Homo sapiens with 120 samples.

Results

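MicroRNA (miRNA) levels in total RNA were compared between 6 libraries labelled Ago2 knock-out and 6 libraries labelled parental, all from experiment 2 of the series. The 12 libraries were taken by their labels for line, experiment and RNA fraction and make up 12 of the 120 libraries of the series. All of them come from HEK293T, a human embryonic kidney line, and all carry a knock-out of PKR, the kinase that is activated by double-stranded RNA (dsRNA). The parental line is this PKR knock-out, labelled pOSI17, and the second line is labelled with an additional Ago2 knock-out in it. With Lipofectamine each line received no dsRNA (mock) or a long dsRNA, either dsGFPc or dsGFPd, and each of these 6 groups has 2 libraries. The labels give 1 derived line per knock-out and do not say whether it is 1 clone, so the loss of Ago2 and other differences between the 2 lines cannot be told apart. Nothing in them tells if replicate libraries were grown as separate cultures, and the p-values therefore measure the spread between these libraries, which may be technical. The libraries dissect which proteins take part when human cells process long dsRNA, and the comparison asks how endogenous miRNAs stand in the line labelled as lacking Ago2.

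A miRNA is cut by Drosha and then Dicer from a hairpin precursor as a duplex of its 5p and 3p arms. An Argonaute protein takes up the duplex, keeps the guide strand and releases the other strand, the passenger, which is usually degraded. Humans have several Argonautes, and Ago2 is the one best known for cutting RNA targets. It also cuts the precursor of miR-451a, which is matured without Dicer, and is linked to the maturation of miR-486. Ago proteins protect the strand they hold, and Ago2 is an abundant family member in HEK293 cells. In the text the arm of a hairpin with the lower mean level in parental total RNA of experiment 1, whose libraries were not otherwise used, is called the minor arm, and the other the major arm.

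The mature sequences that carry the comparison are these, from RefSeq (GRCh38.p14), 5′ to 3′, with the seed (bases 2 to 8, which pair with targets) in capitals. The first set shows both arms of 4 hairpins described below, in which the minor arm rose and the major arm did not.
miR-27b-5p (minor): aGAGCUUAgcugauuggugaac
miR-27b-3p (major): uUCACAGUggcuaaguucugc
miR-25-5p (minor): aGGCGGAGacuugggcaauug
miR-25-3p (major): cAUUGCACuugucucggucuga
miR-92a-1-5p (minor): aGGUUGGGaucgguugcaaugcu
miR-92a-3p (major): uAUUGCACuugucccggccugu
miR-17-3p (minor): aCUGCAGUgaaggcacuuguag
miR-17-5p (major): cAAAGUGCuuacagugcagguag
The second set holds the arms of MIR424, the main example of a hairpin whose more abundant arm rose.
miR-424-5p (minor): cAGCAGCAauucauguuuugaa
miR-424-3p (major): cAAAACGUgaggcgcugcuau
The third set shows miRNAs that fell and share a seed, the first pair with GCUACAU and the second, together with miR-17-5p, with AAAGUGC.
miR-221-3p: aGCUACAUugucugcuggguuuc
miR-222-3p: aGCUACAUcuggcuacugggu
miR-93-5p: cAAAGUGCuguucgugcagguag
miR-20a-5p: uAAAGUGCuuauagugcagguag

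The 12 libraries held 1158520 to 4340650 miRNA reads, with 1765481 to 4340650 in the parental and 1158520 to 3834487 in the Ago2-labelled libraries, and miR-10b-5p was the most abundant miRNA in each. Values below are normalised read counts, in which 1 read was worth 0.125 to 0.446 in these libraries. Small RNA libraries hold no AGO2 mRNA level, and the deletion itself could not be checked. miR-451a, the miRNA that needs Ago2 to mature, had 0 reads in 15859812 parental and 14990333 Ago2-labelled reads, a count that allows up to 3 reads in either total and covers counting error only. It thus checks nothing. The lists hold miRNAs set down as markers of other cell types. Of these, miR-223-3p of myeloid cells and miR-145-5p of smooth muscle had no read in any of the 12 libraries. By contrast, miR-143-3p, also of smooth muscle, had 1270 parental and 1852 Ago2-labelled reads. Reads were 1851 and 3264 for miR-126-3p of endothelium, 484 and 193 for miR-1-3p of muscle, and 81 and 141 for miR-122-5p of liver. Of the blood markers, miR-142-3p and miR-150-5p had 25 and 18 reads, each in 1 Ago2-labelled library, and miR-142-5p had 12 parental and 36 Ago2-labelled reads. Other members of the list, with parental and Ago2-labelled reads, were miR-375-3p (17446 and 8973), miR-200c-3p (694 and 574) and miR-141-3p (124 and 374). The rest were miR-133a-3p (111 and 34), miR-206 (3 and 0), miR-302a-5p (0 and 27) and miR-367-3p (0 and 0).

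The labels of the 2 Ago knock-out lines did not behave alike in the 2 RNA fractions. Experiment 2 also holds libraries of a line labelled Ago1/2 knock-out, and, for each line, libraries of RNA bound to Ago proteins (Ago pulldown, by affinity purification with a peptide). Over 887 miRNAs the difference between the Ago1/2 and the Ago2 label in total RNA had a Pearson r of -0.69 with the same difference in pulldown. This is a correlation across miRNAs, which are not independent replicates. Of the 164 miRNAs that differed by at least 1 log2 unit in both fractions, 159 differed in opposite directions. For example, miR-221-3p was lower with the Ago2 label than with the Ago1/2 label in total RNA (means of 626 and 3610) but higher in pulldown (1240 and 253). The change from parental to the Ago2 label differed between pulldown and total RNA for 95 of 792 miRNAs (12%) by limma, and for 0 of 816 when the labels Ago2 and Ago1/2 were exchanged in the pulldown libraries (24 at an unadjusted p under 0.05; limma was the tool run for this exchange). With the replicate number as a block the 95 became 161, and the exchanged labels were not fitted that way. A count of 0 calls therefore does not show that the fractions are alike. The files do not show which fraction bears the exchanged labels, if either does. Directions below therefore belong to the libraries labelled Ago2 knock-out in total RNA, and every result against parental rests on that label.

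**Figure D1:**
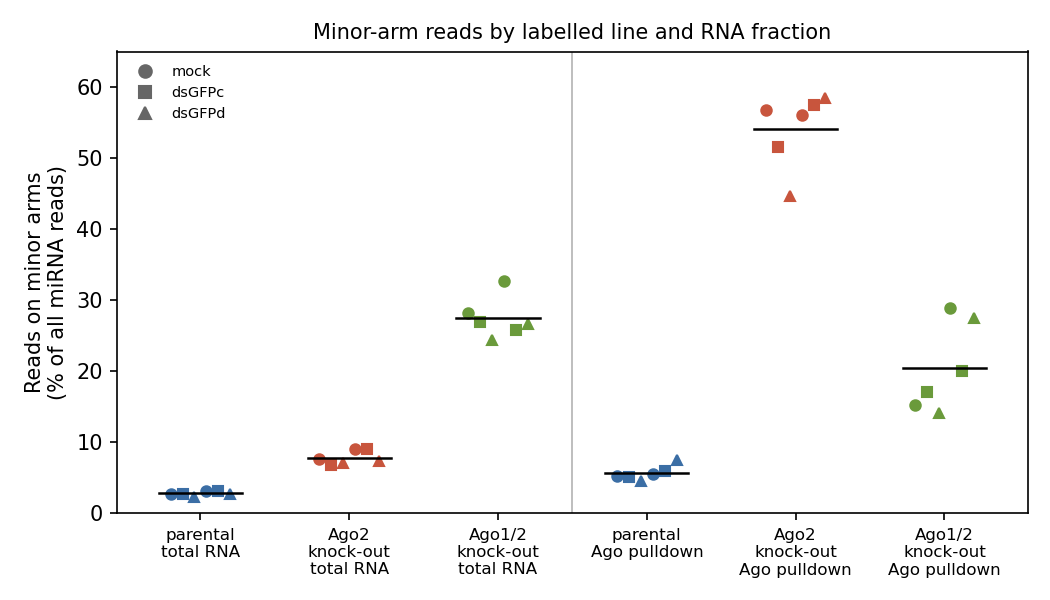
Share of all miRNA reads that fell on minor arms (y axis, percent) in each library of the parental, Ago2 and Ago1/2 labels, in total RNA (left) and Ago pulldown (right). Points are libraries, marker shapes are transfections, and bars are means of 6. In total RNA the Ago1/2 label is highest, with 24.4 to 32.7%, and in pulldown the Ago2 label is highest, with 44.6 to 58.5%.

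Minor arms took a larger part of the reads in the Ago2-labelled libraries. Their share was 2.33% at the lowest, 2.70% at the median and 3.13% at the highest of the 6 parental libraries, and 6.82%, 7.48% and 9.01% in the 6 Ago2-labelled libraries. The groups did not overlap, in total RNA or within any of the 3 transfections. One minor arm, miR-92a-1-5p, was a large part of this, and without it the shares were 2.06 to 2.65% and 4.54 to 5.59%, which still did not overlap. The parental libraries give the background level of passenger strands, and in the plot of shares by library they lie close together.

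Across all miRNAs, 74 of 563 tested rose (13.1%) and 39 fell (6.93%) in the Ago2-labelled libraries, at a limma adjusted p under 0.05. Together these are 113, or 20.1%. The median log2 change over all 563 was 0.04. Scaling moved the split: 94 rose and 28 fell when every library was set to the same sum, with a median of 0.19. edgeR, which differs in test and scaling, gave 55 and 45 on the recovered reads. All 113 had the same sign of difference in mock, dsGFPc and dsGFPd libraries. This is no separate support, because they were called on these libraries together. The values of the 6 libraries of each line did not overlap for 45 miRNAs that were higher (7.99%) and 21 that were lower (3.73%) with the Ago2 label.

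**Figure D2:**
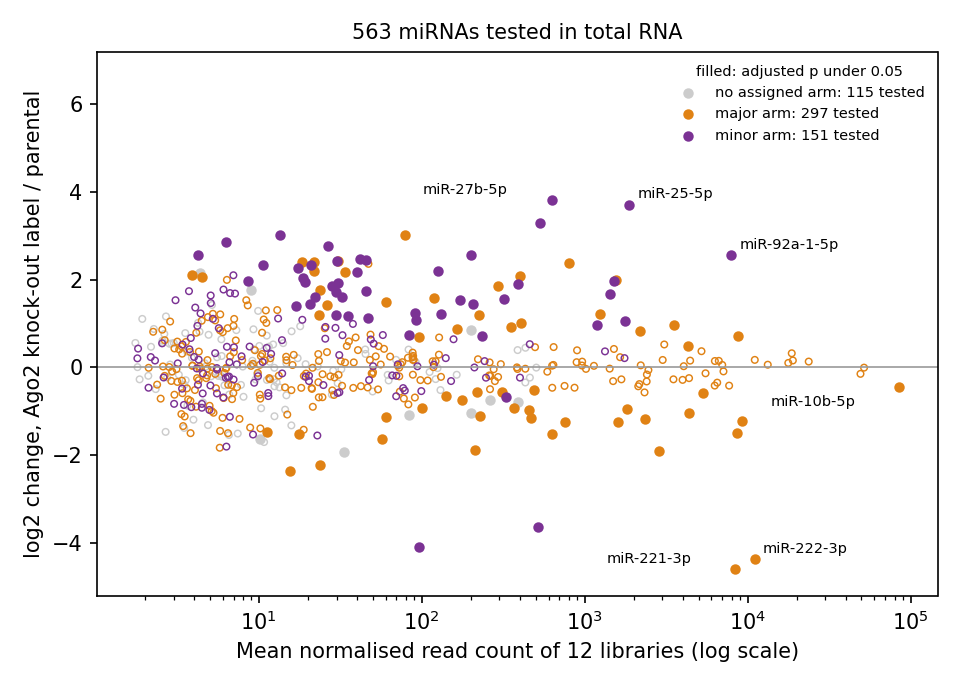
Log2 change (y axis) against the mean normalised read count over the 12 libraries (x axis, log scale) for the 563 miRNAs tested, coloured by arm. Filled points have an adjusted p under 0.05. Minor arms are 44 of the 74 filled points above 0, and the 3p arms of MIR221 and MIR222 lie lowest.

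Rises were concentrated among minor arms, whereas major arms rose and fell in similar numbers. Of 151 minor arms tested, 44 rose (29.1%), 3 fell (1.99%) and the middle log2 change (median) was 0.46. Of all miRNAs 13.1% rose and 6.93% fell. Among 297 major arms 27 rose (9.09%), 30 fell (10.1%) and the median was -0.01. Under the same-sum scaling 53 minor arms rose and 2 fell, and after quantile normalization 43 rose and 6 fell. For major arms the first of these scalings gave 36 rises and 23 falls, and the second gave 29 and 39. The direction of their small imbalance therefore depended on the scaling. Where the mean level over the 12 libraries was above the median of all tested, 35 of 74 minor arms rose and 3 fell, and below it 9 of 77 rose and 0 fell. A rise itself lifts this mean, so the split does not separate level from change. By side of the hairpin, 31 of 84 minor 3p arms and 13 of 67 minor 5p arms rose.

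The largest rise was that of miR-27b-5p, the minor arm of MIR27B (GRCh38.p14 chromosome 9, 95085445 to 95085541, plus strand, within the span of AOPEP). Its partner arm is a regulator of lipid and muscle genes. miR-27b-5p stood at 54.5, 73.2 and 147 (lowest, median and highest) in parental and at 849, 1116 and 1672 in Ago2-labelled libraries. Every Ago2-labelled library lay above every parental one. The log2 change was 3.81 ± 0.24 (SE, n = 6 against 6), with a limma adjusted p of 2.88e-10. The major arm miR-27b-3p ranged from 1354 to 5156 in parental and from 1574 to 4164 in Ago2-labelled libraries, and its change of 0.17 did not pass the test.

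miR-25-5p, the minor arm of MIR25 (chromosome 7, 100093560 to 100093643, minus strand, within MCM7, a gene of the DNA replication helicase), behaved alike in size. It had a lowest value of 139, a median of 297 and a highest of 406 in parental libraries. In Ago2-labelled libraries these were 2529, 3223 and 4864, so the groups did not overlap. Its log2 change was 3.71 ± 0.24 (limma adjusted p 4.39e-10). The major arm miR-25-3p had medians of 17250 and 20451, overlapping ranges and a change of 0.16 that did not pass.

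miR-21-3p, the passenger of the oncogenic miR-21-5p, rose from 59.1, 87.0 and 192 to 628, 953 and 1247 (lowest, median, highest), with no overlap. This is a log2 change of 3.30 ± 0.21 (limma adjusted p 4.15e-10). Its guide miR-21-5p, a control for the pulldown in the protocol, had a change of 0.52 that did not pass (adjusted p 0.087), although it passed under the same-sum scaling and after quantile normalization. The other pulldown control, miR-16-5p, had a change of 0.16 that did not pass.

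The most abundant of the minor arms was miR-92a-1-5p of MIR92A1 (chromosome 13, 91351314 to 91351391, plus strand, within MIR17HG). It stood at 1420, 2449 and 3330 in parental and at 10010, 12712 and 19002 in Ago2-labelled libraries. The groups did not overlap, and the log2 change was 2.57 ± 0.22 (limma adjusted p 2.31e-08). The guide miR-92a-3p, with medians of 49959 and 45414, did not pass. miR-16-2-3p, the minor arm of MIR16-2 (chromosome 3, 160404745 to 160404825, plus strand, within SMC4), rose from 34.5, 49.5 and 113 to 295, 341 and 379, a change of 2.55 ± 0.23.

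**Figure D3:**
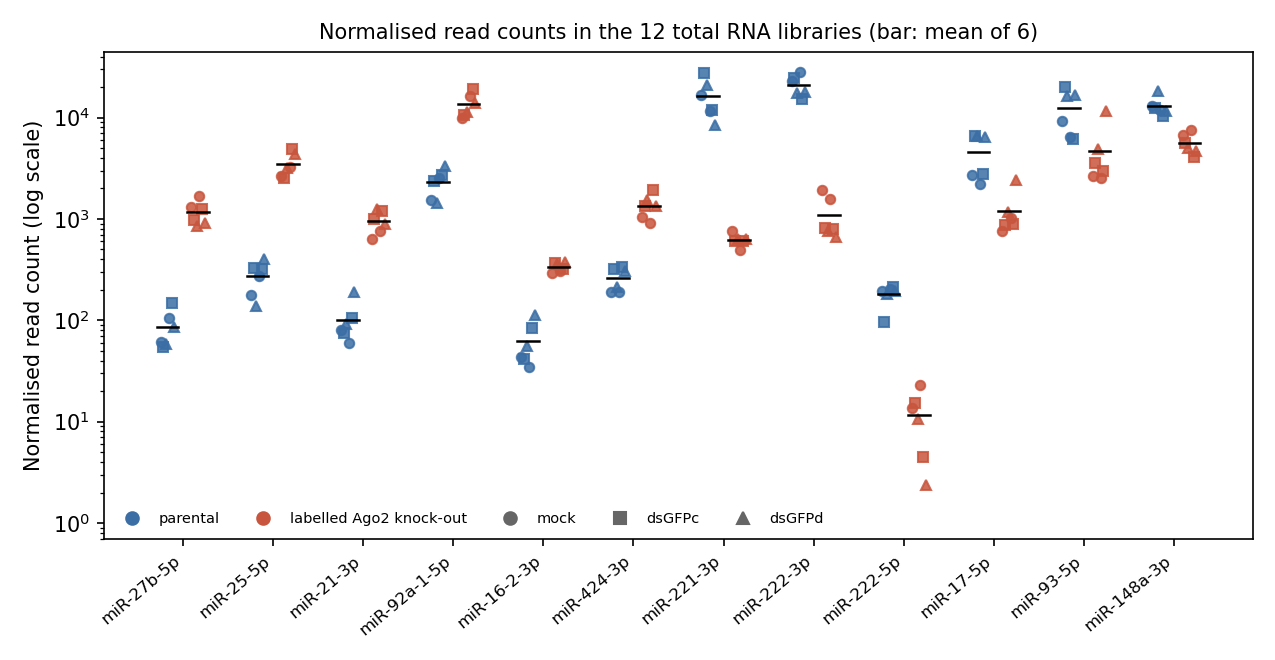
Normalised read counts (y axis, log scale) of 12 miRNAs in each of the 12 total RNA libraries. Points are libraries, marker shapes are transfections, colours are the labelled lines, and bars are means of 6. The first 6 miRNAs lie higher in every Ago2-labelled library, and the arms of MIR221 and MIR222 shown and miR-148a-3p lie lower in every one, whereas miR-17-5p and miR-93-5p overlap between the lines.

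Other minor arms of middling level rose by similar steps. Among those named by rule were miR-26b-3p (2.78), miR-191-3p (2.48), miR-27a-5p (2.44) and miR-30c-1-3p (2.42). The major arm miR-195-3p rose by 2.44. miR-26b-3p and miR-191-3p overlapped between the lines, and the former had 0 reads in its lowest parental library, so its size is less certain. edgeR did not call miR-26b-3p. Of the let-7 passengers, 1 of 6 tested rose, let-7c-3p, from 0, 1.19 and 6.80 to 10.0, 19.3 and 50.4. With 82 reads in all 6 parental libraries together, it passed the filter on low counts only through the Ago2-labelled libraries. Its call is therefore no support. Among let-7 guides 0 of 9 rose or fell. At the same sum 1 of 9 guides and 2 of 6 passengers rose. The let-7 guides are tumour suppressors that are abundant in differentiated cells, and their changes ranged from -0.03 to 0.47.

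Within hairpins, the ratio of minor to major arm rose for 49 of 150 (32.7%) and fell for 13 (8.67%), 62 in all or 41.3%, with a median log2 change of 0.75. Without the libraries numbered replicate 1, which leaves 1 library per group, limma called 0 of 150 (42 at an unadjusted p under 0.05) with a median of 0.71, and without those numbered replicate 2 it called 45. Such a ratio does not depend on how the libraries are scaled, apart from the added pseudocount of 1. An arm that several hairpins share, such as miR-92a-3p or miR-16-5p, holds the reads of all of them. Here too an arm could pass the filter on low counts through 1 line alone, and the hairpins this concerns were not counted. In 34 hairpins the minor arm rose while the major arm did not pass the test, and in 8 the minor arm rose while the major arm fell. In 14 the major arm fell while the minor arm did not pass. In 16 the major arm rose while the minor arm did not pass. Both arms rose in 2 hairpins and both fell in 2. In 1 the minor arm fell while the major arm did not pass, and in 73 neither arm passed. All 62 ratios had the same sign in each of the 3 transfections, which is no separate support because they were called on these libraries together. In the pulldown libraries with the Ago2 label 61 of the 62 had the same sign as in total RNA, and 80 of 158 hairpins were called there, although the labels of that fraction are in doubt as described above. With the Ago1/2 label in pulldown 33 of 181 were called.

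The ratio changed most for miR-27b, whose minor arm was 2.86% of the reads of its 2 arms in parental and 27.2% in Ago2-labelled libraries, a log2 change of 3.64 ± 0.31 (limma adjusted p 1.84e-05). miR-25 followed with 1.50% and 14.9% (3.55), miR-17 with 1.69% and 13.5% (3.12) and miR-26b with 0.604% and 3.15% (3.09). For miR-18a the minor arm became the more abundant one, with 21.8% in parental and 67.7% in Ago2-labelled libraries (2.86). The arms of MIR18A come from a precursor that hnRNP A1 is known to bind.

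**Figure D4:**
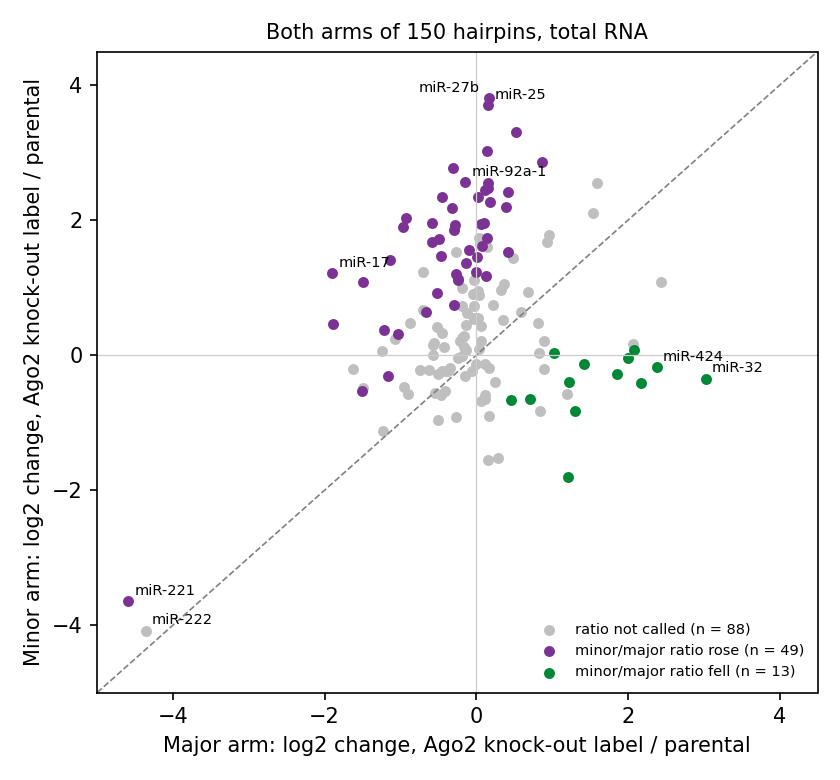
Log2 change of the minor arm (y axis) against that of the major arm (x axis) for 150 hairpins, with the line of equal change dashed. Colours mark hairpins whose minor to major ratio rose (49), fell (13) or was not called (88). Most called hairpins lie above 0 on the y axis and near 0 on the x axis, the 13 in green lie to the right, and both arms of miR-221 and miR-222 lie far down on both axes.

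The 13 hairpins with a falling ratio had a major arm that rose or was higher, and in 9 of them this major arm was the 3p arm. miR-424-3p (MIR424, chromosome X, 134546614 to 134546711, minus strand) is the best measured. In most tissues the 5p arm, a member of the miR-16 family, is taken as the guide, whereas here the 3p arm was the more abundant one. miR-424-3p rose from 189, 259 and 336 to 919, 1341 and 1937, with no overlap and a log2 change of 2.38 ± 0.17 (limma adjusted p 1.57e-09). miR-424-5p had medians of 62.8 and 66.7 and did not pass, and its part of the 2 arms went from 21.0% to 4.47%. miR-32-3p rose by 3.03 and the ratio of miR-32 fell by 3.37, with the 5p arm at 38.0% and 5.08%. miR-125b-2-3p, miR-339-3p and miR-374a-3p rose by 2.00, 1.85 and 2.08. The ratios of miR-551b and miR-1247 also fell, but these calls were lost in 6 and 3 of the 12 fits that left out 1 library.

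The arms that gained within a hairpin differed in their first base from those that lost. Of the 62 called hairpins 54 had both mature sequences in RefSeq. The gaining arm began with A in 20, C in 21, G in 8 and U in 5. The losing arm began with U in 32, A in 11, C in 9 and G in 2. In the 75 hairpins that were not called and had both sequences, the arm with the higher change began with U in 21 and the other arm in 43. The gaining arm had a mean of 1.65 A or U bases among its first 4, and the losing arm 2.44, against 1.91 and 2.09 in hairpins not called. The gaining arm was the 3p arm in 41 of 62, and the arm with the higher change was the 3p arm in 47 of the 88 not called. A U at the first base is known to fit the 5′ binding pocket of Argonautes well, and a weakly paired 5′ end is known to favour choice as guide. These counts describe the hairpins and are no test. In 49 of the 62 called hairpins the gaining arm was the minor arm. Of the arms tested, 137 of 297 major and 32 of 151 minor arms had a matched sequence beginning with U. The contrast of gaining and losing arms therefore overlaps with that of minor and major arms. Over single miRNAs the order was alike: 17 of 42 minor arms beginning with A rose, 17 of 46 with C, 3 of 14 with G and 3 of 32 with U, and of 137 major arms beginning with U 7 rose and 17 fell.

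The cluster of miR-221 and miR-222 fell most. Both hairpins lie on chromosome X (MIR221 at 45746157 to 45746266, MIR222 at 45747015 to 45747124, minus strand) within MIR222HG. They are known to repress the cell cycle inhibitor p27. miR-221-3p stood at 8468, 14291 and 27626 in parental and at 498, 624 and 767 in Ago2-labelled libraries. The log2 change was -4.59 ± 0.24 (limma adjusted p 1.49e-11). miR-222-3p stood at 15179, 20468 and 28040 and at 657, 804 and 1908, a change of -4.36 ± 0.18 (adjusted p 3.27e-13).

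The minor arms of this cluster fell as well. miR-221-5p went from 607, 933 and 1567 to 47.7, 68.5 and 111, a change of -3.64, and miR-222-5p from 95.4, 194 and 213 to 2.35, 12.2 and 23, a change of -4.08. All 4 mature miRNAs had groups without overlap. The ratio of arms changed little beside these falls, by 0.95 for miR-221 (limma adjusted p 0.024) and by 0.28 for miR-222, which did not pass. These 2 of the 3 minor arms that fell therefore moved with their hairpins, and the third was miR-130b-3p (-0.67). With the Ago1/2 label in total RNA, the 2 guides miR-221-3p and miR-222-3p had means of 3610 and 5843, below the parental 16210 and 20996 and above the Ago2-labelled 626 and 1086.

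Most tested members of the miR-17 seed family fell. This family of the seed AAAGUGC drives proliferation and is made from 3 related clusters. Of 5 members tested 4 fell, beside 6.93% of all miRNAs, with a median of -1.50, and 4 fell under the same-sum scaling and after quantile normalization too. miR-17-5p (MIR17, chromosome 13, 91350605 to 91350688) went from 2196, 4649 and 6605 to 756, 953 and 2433. The ranges overlapped through 1 Ago2-labelled library, and the log2 change was -1.90 ± 0.23 (limma adjusted p 2.82e-06). miR-93-5p went from 6213, 12780 and 19850 to 2505, 3255 and 11633, a change of -1.50 ± 0.25. miR-20a-5p and miR-106a-5p fell by 1.04 and 1.53, and miR-106b-5p, at -0.23, did not pass. In miR-17-5p, miR-93-5p and miR-20a-5p the second dsGFPd library of the Ago2 label was the highest of its group, as was the second parental dsGFPd library for miR-20a-5p. Members differ at few bases, and the counting could split reads between them, so single values are uncertain.

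**Figure D5:**
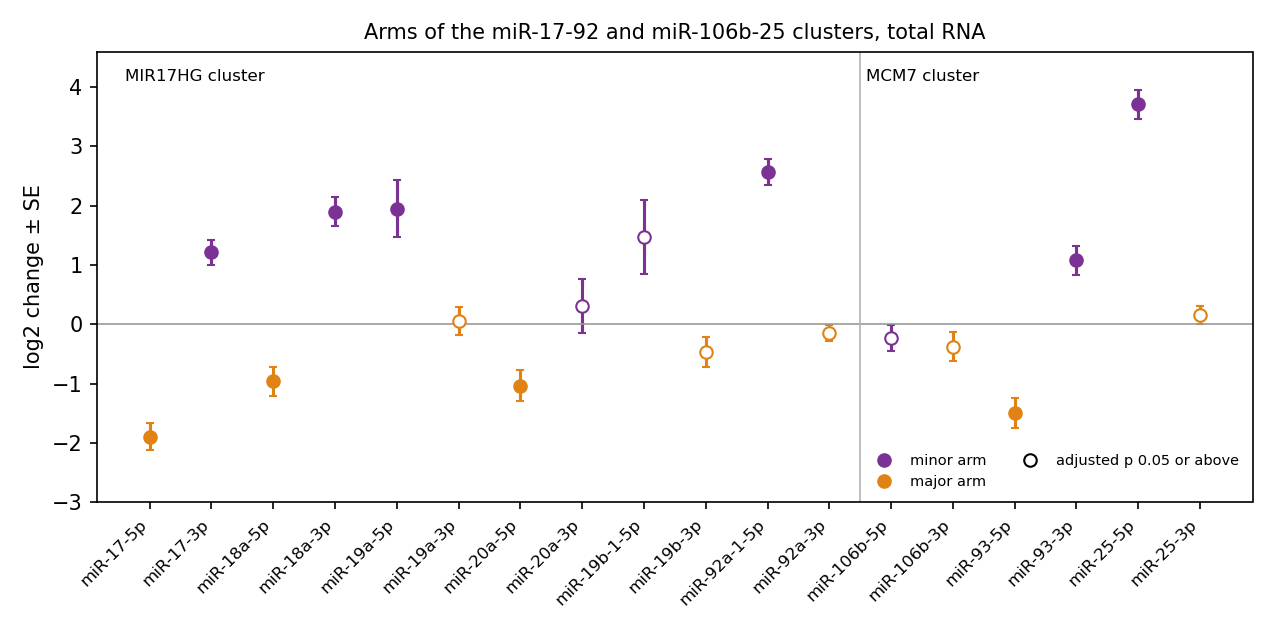
Log2 change with its SE (y axis) for the arms of the miR-17-92 cluster (left) and the miR-106b-25 cluster (right), in total RNA. Purple marks minor and orange major arms, and open points did not pass the test. Minor arms that passed lie between 1.08 and 3.71, and major arms that passed lie between -1.90 and -0.96.

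Arms from the same primary transcript moved in opposite directions. In MIR17HG, the host transcript of 6 hairpins, 4 of the 10 mature miRNAs assigned to the cluster rose and 3 fell. The minor arms miR-17-3p (1.21), miR-18a-3p (1.89), miR-19a-5p (1.95) and miR-92a-1-5p (2.57) rose, and the major arms miR-17-5p, miR-18a-5p (-0.96) and miR-20a-5p fell. The major arm miR-19a-3p changed by 0.06 and did not pass. In the cluster within MCM7 miR-25-5p and miR-93-3p (1.08) rose and miR-93-5p fell. Of the 10 passenger arms tested of these and the related cluster, 6 rose and 0 fell, with a median of 1.34 beside 0.04 for all miRNAs. After quantile normalization 1 of the 10 fell. This list was set by name and not by level: it holds miR-106b-3p, with 70561 parental reads against 7855 of miR-106b-5p.

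Other guides fell by less than the arms of miR-221 and miR-222. miR-148a-3p (MIR148A, chromosome 7, 25949919 to 25949986), known to target DNMT1, went from 10282, 12173 and 18228 to 4048, 5315 and 7561, without overlap, a change of -1.21 ± 0.17 (limma adjusted p 2.41e-05). Its relative miR-148b-3p had -1.24, but its call was lost in 5 of the 12 fits that left out 1 library, and miR-152-3p did not pass (-0.49). miR-503-5p, which lies beside MIR424 and shares targets with the miR-16 family, went from 221, 326 and 446 to 59.5, 96.7 and 108 (-1.88 ± 0.22), while miR-424-3p from the same cluster rose. miR-340-5p fell by 1.51, miR-190a-5p by 2.22, miR-548l by 1.92 and miR-1908-5p by 1.63, each without overlap. miR-99b-5p, miR-375-3p and miR-9-5p fell by 1.16, 1.16 and 1.11.

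Among the abundant guides most did not pass the test. miR-10b-5p, from the HOXD cluster, went from a median of 92624 to 70418, with overlapping ranges and a log2 change of -0.45 ± 0.14 (limma adjusted p 0.021). It was lost in 4 of 12 fits without 1 library and under both other scalings. miR-10a-5p, miR-92a-3p, miR-30d-5p, miR-25-3p, miR-30a-5p, miR-182-5p, let-7a-5p and let-7f-5p had changes between -0.15 and 0.32, none of which passed. Of the miR-30 family 0 of 5 and of the miR-29 family 0 of 3 were called, and 2 of the 5 miR-30 members rose at the same sum. Of the miR-181 family 2 of 4 fell, and of the family of miR-130, miR-301 and miR-454 2 of 4, and at the same sum 0 of either.

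Both arms of miR-486, which is linked to Ago2, were higher with the Ago2 label. miR-486-5p, whose maturation in red cells uses Ago2, stood at 79.6, 116 and 164 in parental and at 188, 207 and 233 in Ago2-labelled libraries. The groups did not overlap and the change was 0.87 ± 0.20 (limma adjusted p 0.0034). miR-486-3p went from 0, 0.434 and 3.56 to 7.59, 12.3 and 14.1 (2.86 ± 0.55). With 25 reads in all 6 parental libraries together, it passed the filter on low counts only through the Ago2-labelled libraries, so its call is no support. Mirtrons, which are made by splicing in place of Drosha, had 0 of 6 called, and the Drosha-independent list of the miR-320 family and others had 0 of 6 called.

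Other lists were small, and their counts stand beside the 13.1% of all miRNAs that rose and the 6.93% that fell. Of the p53-linked miRNAs 2 of 3 rose, miR-34a-5p by 0.93 with overlapping ranges and miR-34c-5p by 2.41, from a median of 7.37 to 29.1. The log2 difference of miR-34c-5p was 2.89 larger in dsGFPd than in mock libraries, although its interaction did not pass (limma adjusted p 0.99). Over the other fits its change ranged from 1.43 to 4.32. miR-204-5p, a neural and epithelial miRNA, rose from 34.3, 63.4 and 96.3 to 133, 184 and 213 (1.59 ± 0.27), without overlap. Of 9 inflammation-linked miRNAs 1 rose, miR-21-3p, and of 3 hosted by interferon-response genes 0 were called. Of 7 tested markers of other cell types, the endothelial marker miR-126-3p rose by 0.74 (this call did not hold in 9 of 12 fits that left out 1 library), and miR-1-3p of muscle and miR-375-3p of endocrine cells fell. Their part in the other results was not tested.

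The difference between the lines was compared across the 3 transfections by an interaction of line and transfection. limma called 0 of 563 miRNAs (0%), with 23 at an unadjusted p under 0.05. edgeR also called 0, and DESeq2 called 1. The smallest limma p was that of miR-5584-5p (0.0076, adjusted 0.99). For miR-27b-5p the log2 difference was 4.21 in mock, 3.61 in dsGFPc and 3.62 in dsGFPd libraries, and for miR-221-3p it was -4.49, -4.89 and -4.39. With 2 libraries per group, smaller interactions could not be shown at this number of libraries.

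Passenger strands in total RNA were higher still with the Ago1/2 label. Between the 2 Ago knock-out labels in total RNA, limma called 224 of 544 miRNAs (41.2%), with 133 higher (24.4%) and 91 lower (16.7%) with the Ago1/2 label. Of the 44 minor arms that rose with the Ago2 label, 40 had a higher mean with the Ago1/2 label in total RNA, whereas in pulldown 4 did. The 44 were chosen by their rise in these data. Over all 544 miRNAs the median log2 difference in total RNA, Ago1/2 minus Ago2 label, was 0.09. miR-21-3p had means of 101 in parental, 960 in Ago2-labelled and 9649 in Ago1/2-labelled total RNA, and of 57.7, 5358 and 487 in pulldown. miR-25-5p had 275, 3486 and 17146 in total RNA, and 1960, 235614 and 58185 in pulldown. In bulk libraries a change in every cell and a change in part of the cells cannot be told apart.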

How the data were processed

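Small RNA libraries were made with the Lexogen kit from total RNA, per the labels' protocols. STAR and GRCh38 were used, per the submitters' processing notes; versions, counter and normalization software are not given in the sources used here. What the authors deposited is a signal, normalised counts of each mature miRNA in each library. Dividing each column by its smallest non-zero value gave whole reads for 100% of values, within a tolerance of 0.01 of a read. On these recovered reads edgeR 4.0.16 (TMM) called 100 miRNAs and DESeq2 1.42.0 called 129.

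Of 2883 rows 2652 names were kept, and 231 further rows of repeated loci, which hold nearly the same reads, were set aside. miRNAs with at least 10 reads in at least 6 of the 12 libraries were tested on log2(value + 1) with limma 3.58.1 (R 4.3.3; a robust empirical Bayes fit with a mean-variance trend) and additive terms for line and transfection. Fold changes are on that scale, which understates those of low miRNAs. Benjamini-Hochberg adjustment ran over all miRNAs tested (threshold 0.05). The scripts were tested on simulated data.

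Arm ratios are log2((minor + 1)/(major + 1)), fitted with trend but without the robust option, for hairpins with both arms tested. The assignment of minor arms from 6 parental libraries of experiment 1, the exchange of the Ago labels in pulldown and the pulldown ratios with the Ago1/2 label were added after the data were seen. Of the 563 miRNAs tested, 507 matched a RefSeq mature sequence and 553 a hairpin.

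The comparison, members and lists were chosen with earlier results of these data known. Named are up to 12 miRNAs each way by largest change among those called, above the median level and with the same sign in each transfection, the 10 of highest level, up to 6 hairpins each way, and called list members. The arm ratios of the hairpins miR-15b, let-7c and miR-3620, which this rule also picked, are not given. The hairpins miR-18a, miR-125b-2 and miR-374a and the cell type markers given by their reads were named after their values were seen. In the tables, 90 further columns were not used; they include a table deposited for experiment 3 that is identical to that of experiment 2, so experiment 3 was not analysed here. Deviations of same-numbered libraries were nearly uncorrelated over all miRNAs tested, and the replicate number was left out of the main fit. No pair of replicate libraries was identical, and chi-square per degree of freedom ranged from 89.6 to 484.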

Additional observations from a re-analysis of the deposited data

Results flagged for a closer look

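In 6 of the 126 groups of 6 libraries checked, 1 library lay far from the other 5, by a gap that is a larger part of the group's range than Dixon's critical value. Chance flags about 1 in 20 groups. miR-191-3p was at 0.200 in parental mock replicate 1, against 11.3 to 32.3 in the other parental libraries, and at 26.9 in Ago2-labelled dsGFPd replicate 2, against 59.8 to 89.2. miR-222-5p was at 95.4 in parental dsGFPc replicate 1, against 181 to 213. miR-26a-5p was at 2370 in the same library, against 3476 to 4315. let-7a-5p was at 17581 in Ago2-labelled dsGFPd replicate 2, against 12031 to 13457, and miR-20a-5p was at 8084 in that library, against 1336 to 2591.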

How the results depend on the processing

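The count of 113 miRNAs was 93 to 129 under other pseudocounts, filters, scalings and tools, and 88 at an absolute log2 change of at least 1. It was 71 with mock libraries only, 21 with dsGFPc and 35 with dsGFPd libraries only, which hold 4 libraries each, and 34 with 24 libraries that include the Ago1/2 and Dicer knock-outs. Leaving out 1 library or 1 replicate number gave 79 to 119. The 62 arm ratios became 31 of 44 when both arms had a mean of at least 50, 33 in pulldown with the Ago1/2 label, and 0 to 65 when libraries were left out, with 0 of 150 by limma without replicate 1 (42 at an unadjusted p under 0.05) and 45 without replicate 2. The interaction with transfection gave 1 call by DESeq2 and 0 to 1 without single libraries, the 1 call without parental dsGFPd replicate 1. The 95 differences between pulldown and total RNA were 159 at the same sum (20 higher, 139 lower), 63 without a low-count filter, 161 with a replicate block, 67 to 97 without single libraries, and 0 with the labels exchanged in the pulldown. The 224 differences between the Ago labels were 149 at an absolute log2 change of at least 1 and 170 to 228 without single libraries or replicate numbers. The change of miR-16-5p was -0.14 in dsGFPd libraries only; the cause was not tested.

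With the replicate number as a block 131 miRNAs were called (83 rose, 48 fell), among them all 113, and 72 arm ratios. Same-numbered libraries had correlations of their deviations of 0.008, 0.070 and 0.098 in mock, dsGFPc and dsGFPd. These are taken over all 563 miRNAs, and whether single miRNAs share a replicate effect was not tested. Calls lost in some of the 12 fits without 1 library were those of miR-107 (7), miR-181a-5p (5), miR-181c-5p (7), miR-183-5p (10), miR-24-3p (6), miR-26a-5p (7) and miR-454-3p (3), and miR-21-5p passed in 3 of them. Depth limits miRNAs near 10 reads, where 1 read moves the value most.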
